A study of Mus musculus with 9 samples.

Results

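The interferon response begins at the cell surface and ends at a small set of transcription factors, and 9 genes of this relay were followed here: the receptor chains Ifnar1, Ifnar2, Ifngr1 and Ifngr2, the signal transducer Stat2, and the interferon regulatory factors (IRFs) Irf1, Irf7, Irf8 and Irf9. They were taken by name from the table of 21899 genes, and were proposed with earlier results of these data known. All 9 were found, and all 9 passed the filter on low counts, which left 14837 genes to test. RNA had been sequenced from dissected paraventricular thalamus (PVT), a thin nucleus along the midline of the thalamus with a role in wakefulness, from mice labelled WT. Every animal had received an injection, of phosphate-buffered saline (PBS) or of lipopolysaccharide (LPS), a component of the bacterial outer membrane that activates Toll-like receptor 4. There were 3 groups of 3 libraries, collected 1 day after PBS, 1 day after LPS and 7 days after LPS. No PBS group collected at 7 days is among these libraries. Where the late LPS group is set against PBS, the day and the treatment therefore cannot be told apart. Strain, age, sex, dose and any pooling of animals are not in the labels used here. The labels do not say that replicates were separate animals either, so p-values measure the spread between these libraries, which may be technical.

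Type I interferons, the alpha and beta families, bind a receptor made of IFNAR1 and IFNAR2. Interferon gamma, the type II interferon, binds a receptor made of IFNGR1 and IFNGR2. Janus kinases bound to these chains phosphorylate STAT proteins. For type I interferons, STAT2 joins with IRF9 and a further STAT in a complex that binds the interferon-stimulated response element (ISRE), while STAT dimers formed after interferon gamma bind the gamma-activated site (GAS). IRF1 and IRF7 are themselves induced by interferons and extend the response, and IRF8 is a myeloid factor that in brain tissue is found mainly in microglia.

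The promoters show which of the 9 genes carry these letters close to their start. RefSeq (GRCm38.p6) held a promoter of 300 bases, 250 before and 50 after the start, for 9 of 9 genes, and 3 of them (Irf1, Irf8 and Irf9) had 2 entries. Each was searched on both strands for the ISRE core, which is GAAA, any 2 bases and GAAA again, and for the GAS core TTCNNNGAA. Over 32851 RefSeq promoters of the same length, 3.44% held the first and 8.30% the second. The stretches below are shown because they hold matches, in capitals, in genes whose transcripts are described next: 3 transcription factors and a receptor chain. Irf7 is added as the gene with the widest change and no match of either core in its window. The Stat2 stretch is chr10:128270248-128270335 on the plus strand, and its capitals mark an ISRE core on the opposite strand that starts 222 bases before the transcription start. The Irf1 stretch is chr11:53769874-53769982 on the plus strand, with a GAS core 90 bases before the start. The Irf8 stretch is chr8:120736137-120736263 on the plus strand, with GAS cores at 171 and 153 bases before the start. The Ifnar2 stretch is chr16:91372533-91372627 on the plus strand, with a GAS core 214 bases before the start. The Irf7 stretch is chr7:141266425-141266533 on the minus strand and ends at the last base before the start.
Stat2: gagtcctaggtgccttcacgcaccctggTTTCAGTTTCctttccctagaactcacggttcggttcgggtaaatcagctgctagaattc
Irf1: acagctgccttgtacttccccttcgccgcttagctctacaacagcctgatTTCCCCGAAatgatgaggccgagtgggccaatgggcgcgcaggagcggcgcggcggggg
Irf8: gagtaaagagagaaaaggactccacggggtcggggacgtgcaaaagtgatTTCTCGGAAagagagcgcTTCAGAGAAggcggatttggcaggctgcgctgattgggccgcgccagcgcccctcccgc
Ifnar2: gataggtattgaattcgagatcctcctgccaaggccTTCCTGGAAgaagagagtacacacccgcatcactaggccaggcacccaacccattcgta
Irf7: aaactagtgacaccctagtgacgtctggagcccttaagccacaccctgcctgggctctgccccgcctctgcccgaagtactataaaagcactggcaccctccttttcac

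Among the remaining windows, Ifnar1 held the GAS core TTCACGGAA, which starts 5 bases before the transcription start. Neither core was found in the windows of Ifngr1, Ifngr2 and Irf7, in either entry of Irf9, or in the other entries of Irf1 and Irf8. No ISRE match overlapped a GAS match. A match is a run of letters and not a measured binding site, and an absent match says only that these letters are not in this window.

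Libraries held 13211422 to 17210526 gene counts. Levels below are CPM, counts scaled to a common library total, after TMM scaling, which corrects library totals for composition. Changes are log2 fold changes ± SE from edgeR's quasi-likelihood test on all 9 libraries, with p-values adjusted over the 14837 genes, and a gene rose or fell when its adjusted p was under 0.05. The groups differed in more than treatment. Transcripts of 4 Y-linked genes summed to at most 0.0588 CPM in PBS libraries, to 81.5 to 85.2 in LPS libraries at 1 day and to 90.5 to 102 at 7 days. The labels give no sex, and in both comparisons with PBS the sex of the animals and the treatment cannot be told apart. Transcripts of 8 cerebellar markers summed to 333 to 343 CPM in PBS, 274 to 288 in LPS at 1 day and 1389 to 1405 in LPS at 7 days. Among these 8, Gabra6 stood at means of 0.0861, 0.0203 and 164 CPM and Cbln3 at 0.483, 0.701 and 315. Calb1, by contrast, was already at 146 CPM in PBS, with 121 at 1 day and 239 at 7 days. Zic1, Cbln1 and Zic2 were also well above 0 in PBS, at means of 96.4, 64.0 and 29.95 CPM. Transcripts of 6 striatal markers summed to 1534 to 1586, 872 to 883 and 638 to 649. The 8 markers of PVT neurons were all present and summed to 343 to 353, 249 to 266 and 329 to 341 CPM. At 1 day 5 of them fell and none rose, beside 24.2% and 24.9% of all genes tested. At 7 days against PBS 1 rose, 3 fell and 4 did not pass, beside 16.8% of all genes that rose and 18.9% that fell. Calb2 was the 1 that rose, with means of 97.1, 73.8 and 160 CPM in the 3 groups, while Drd2 stood at 87.9, 42.9 and 41.7. The part of these differences in the results below was not tested, and because the samples are bulk tissue, fewer cells of a type and less RNA per cell cannot be told apart.

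One day after LPS the 5 transcription factors were all higher than in PBS, led by Irf7 at 5.97-fold, followed by Stat2 at 2.31-fold, Irf9 at 2.16-fold, Irf8 at 2.09-fold and Irf1 at 1.73-fold. Of the receptor chains, Ifngr1 rose by a smaller amount, Ifngr2 fell slightly, and Ifnar1 and Ifnar2 did not pass the test. In all, 6 of the 9 genes rose, 1 fell and 2 did not pass. Over all genes tested in this comparison 24.9% rose and 24.2% fell, or 49.1% in either direction, so a call alone was common. Rises of at least 2-fold were made by 4 of the 9 genes and by 4.0% of all genes tested, and falls of that size by none of the 9 and by 1.21% of all genes. In 7 of the 9 genes every LPS library lay above every PBS library and in 1 (Ifngr2) below, which over all genes tested held for 27.4% and 27.1%, or 54.5% in either direction. The median log2 fold change was 0.79 over the 9 genes and -0.01 over all genes tested, whose 5th to 95th percentiles ran from -0.64 to 0.88.

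**Figure D1:**
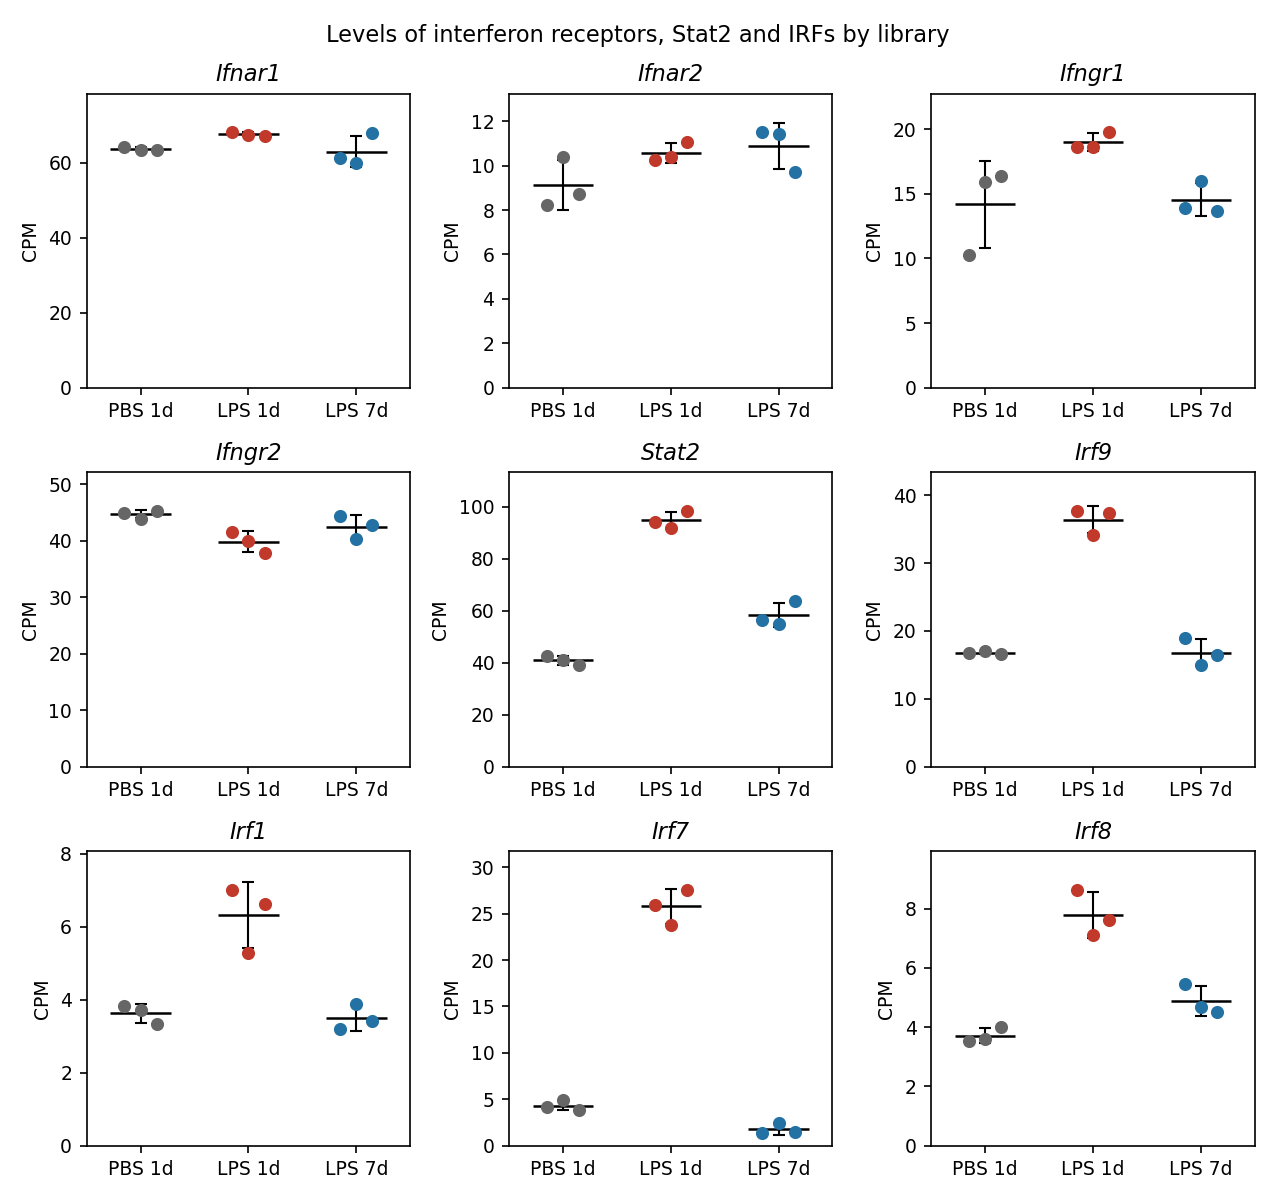
Level of each of the 9 genes in every library, in CPM on a linear axis from 0, by group; points are libraries, horizontal lines group means and error bars the SD (n = 3). Irf7 stands at 23.8 to 27.6 CPM in LPS at 1 day and at 1.41 to 2.47 in LPS at 7 days, with PBS between them, while Ifnar1 lies between 59.9 and 68.2 CPM in every library.

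Ifnar1 and Ifnar2, the chains of the type I receptor, passed the test in none of the 3 comparisons. They lie beside Ifngr2 on chromosome 16 (GRCm39 coordinates as deposited: Ifnar2 at 91169671 to 91202477, Ifnar1 at 91282126 to 91304329 and Ifngr2 at 91343960 to 91362511, all on the plus strand). Ifnar1 measured 64.2, 63.4 and 63.2 CPM in the PBS libraries, 68.2, 67.5 and 67.1 in LPS at 1 day, and 61.2, 59.9 and 67.8 in LPS at 7 days. The LPS libraries at 1 day all lay above those of PBS, yet by only 0.09 ± 0.06 on the log2 scale, which edgeR's quasi-likelihood test did not call (adjusted p = 0.202, 95% interval -0.03 to 0.20). At 7 days the Ifnar1 libraries overlapped both other groups.

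Ifnar2 measured 8.23, 10.4 and 8.72 CPM in PBS, 10.3, 10.4 and 11.1 in LPS at 1 day, and 11.5, 11.4 and 9.70 in LPS at 7 days. All 3 groups overlapped. The log2 difference from PBS was 0.22 ± 0.13 at 1 day (95% interval -0.03 to 0.47) and 0.26 ± 0.12 at 7 days (0.01 to 0.51), with adjusted p = 0.149 and 0.105 in edgeR's quasi-likelihood test. The 7-day difference passed the test without PBS replicate 2 (0.36, adjusted p = 0.0397). These intervals leave room for a difference of up to about the size seen for Ifngr1.

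The chains of the gamma receptor differed from each other in direction. Ifngr1, the ligand-binding chain, lies on chromosome 10 (19467697 to 19485977, plus strand). It measured 10.3, 15.9 and 16.4 CPM in PBS, 18.6, 18.6 and 19.8 in LPS at 1 day, and 13.9, 15.98 and 13.7 in LPS at 7 days. The LPS libraries at 1 day lay above all others, and PBS replicate 1 lay below all others. Ifngr1 rose by 0.43 ± 0.11 at 1 day (adjusted p = 0.00148, edgeR quasi-likelihood), and without PBS replicate 1 the difference was 0.24 and no longer passed (adjusted p = 0.0721). From 1 to 7 days it fell by 0.39 on the log2 scale (SE 0.11, adjusted p = 0.00294, edgeR quasi-likelihood).

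Ifngr2, the signalling partner of that chain, measured 44.9, 43.9 and 45.3 CPM in PBS, 41.6, 40.0 and 37.9 in LPS at 1 day, and 44.5, 40.3 and 42.8 in LPS at 7 days. The PBS libraries lay above those of LPS at 1 day, and those of 7 days overlapped both. It fell by 0.17 on the log2 scale at 1 day (SE 0.07, adjusted p = 0.0314, edgeR quasi-likelihood). That call was lost when PBS replicate 1, PBS replicate 3, LPS 1-day replicate 2 or LPS 1-day replicate 3 was left out (adjusted p 0.0612 to 0.155), and in DESeq2 (adjusted p = 0.0585).

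Stat2 was the only one of the 9 genes that stood above PBS at both times by the test. It lies on chromosome 10 (128106428 to 128128718, plus strand), and its promoter carries the ISRE core printed above. Stat2 measured 42.5, 41.1 and 39.1 CPM in PBS, 94.0, 91.6 and 98.4 in LPS at 1 day, and 56.6, 54.9 and 63.7 in LPS at 7 days. The 3 groups did not overlap, and the 7-day libraries lay between the other groups. The log2 change was 1.21 ± 0.06 at 1 day (adjusted p = 5.13e-23, edgeR quasi-likelihood) and 0.51 ± 0.06 at 7 days against PBS (adjusted p = 1.11e-09), and the fall from 1 to 7 days was -0.70 ± 0.06 (adjusted p = 3.83e-15).

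Irf9, the DNA-binding partner of STAT2, lies on chromosome 14 (55841028 to 55847487, plus strand). It measured 16.7, 17.0 and 16.6 CPM in PBS, 37.7, 34.1 and 37.4 in LPS at 1 day, and 18.9, 14.9 and 16.5 in LPS at 7 days. The 1-day libraries stood apart from all others, and the 7-day libraries spread around those of PBS. The log2 change was 1.11 ± 0.09 at 1 day (adjusted p = 2.11e-15, edgeR quasi-likelihood) and -1.11 ± 0.09 from 1 to 7 days (adjusted p = 5.78e-16). Set against PBS, the 7-day change was -0.00 ± 0.09 (95% interval -0.19 to 0.19, adjusted p = 0.996), a value whose sign changed with the scaling used. Irf9 overlaps Rnf31 on the same strand, whose log2 difference at 1 day was 0.19 and whose mean level was 36.6, 41.6 and 34.5 CPM in the 3 groups, so reads in the shared stretch could count toward either gene.

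Irf1, an early interferon-induced activator on chromosome 11 (53660841 to 53669200, plus strand), measured 3.82, 3.73 and 3.34 CPM in PBS, 7.01, 5.30 and 6.63 in LPS at 1 day, and 3.19, 3.89 and 3.43 in LPS at 7 days. The 1-day libraries lay above the rest, and PBS and 7 days overlapped. Irf1 rose by 0.79 ± 0.18 at 1 day (adjusted p = 0.000278, edgeR quasi-likelihood) and changed by -0.84 ± 0.18 from 1 to 7 days (adjusted p = 8.04e-05). The 7-day libraries differed from PBS by -0.06 ± 0.19 on the log2 scale (95% interval -0.45 to 0.33). Counts behind these levels were 49 to 109 per library.

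Irf7, the factor that drives much of interferon alpha transcription, made the widest swing and ended below its PBS level. It lies on chromosome 7 (140842619 to 140846394, minus strand). Irf7 measured 4.17, 4.87 and 3.88 CPM in PBS, 26.0, 23.8 and 27.6 in LPS at 1 day, and 1.41, 2.47 and 1.48 in LPS at 7 days. The 3 groups did not overlap. The log2 change was 2.58 ± 0.13 at 1 day (adjusted p = 2.93e-22, edgeR quasi-likelihood), -3.85 ± 0.15 from 1 to 7 days, which is 14.4-fold lower (adjusted p = 3.03e-27), and -1.27 ± 0.20 at 7 days against PBS, or 2.42-fold lower (adjusted p = 7.08e-07). Counts at 7 days were 23 to 40 per library. Irf7 overlaps Phrf1 on the opposite strand, and the labels do not say whether counting used strand. Phrf1 stood at means of 72.0, 70.6 and 76.9 CPM and passed the test in none of the 3 comparisons (edgeR quasi-likelihood adjusted p = 0.683, 0.218 and 0.0637).

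Irf8 lies on chromosome 8 (121463097 to 121483433, plus strand). It measured 3.53, 3.61 and 4.02 CPM in PBS, 8.63, 7.10 and 7.61 in LPS at 1 day, and 5.45, 4.69 and 4.50 in LPS at 7 days. The 3 groups did not overlap, with 7 days between the others. Irf8 rose by 1.06 ± 0.17 at 1 day (adjusted p = 6.15e-07, edgeR quasi-likelihood) and changed by -0.67 ± 0.16 from 1 to 7 days (adjusted p = 0.000348). Its difference from PBS at 7 days was 0.39 ± 0.18, which did not pass (adjusted p = 0.0765, 95% interval 0.04 to 0.75) but passed when libraries were scaled by their totals alone (0.43, adjusted p = 0.048).

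Since IRF8 and its partner SPI1 are myeloid factors, the microglial markers belong beside these values. The 14 markers, Cx3cr1, P2ry12, Tmem119 and Csf1r among them, were all present and summed to 335 to 359 CPM in PBS, 378 to 393 in LPS at 1 day and 329 to 340 in LPS at 7 days. At 1 day 5 of them rose, 4 fell and 5 did not pass, beside 24.9% of all genes tested that rose and 24.2% that fell. The log2 changes of those that rose were 1.19 (C1qb), 1.05 (C1qc), 0.92 (C1qa), 0.65 (Fcrls) and 0.24 (Csf1r). Those that fell were Gpr34 (-1.51), P2ry12 (-1.03), Cx3cr1 (-0.26) and Sall1 (-0.24). The higher sum at 1 day was thus not shared by all the markers. By 7 days 1 of the 14 markers (P2ry12) was lower than in PBS and 13 did not pass, beside 35.6% of all genes that changed. Of 5 perivascular macrophage markers the sum was 10.5 to 13.1 CPM in PBS, 10.8 to 12.5 at 1 day and 5.45 to 8.45 at 7 days. The 6 monocyte markers summed to 102 to 111, 159 to 164 and 116 to 120 CPM, with Chil3 at 0 in PBS. Only 2 of them had enough counts to be tested, Fn1 and Vcan, which other brain cells also express. Fn1 stood at means of 70.2, 110 and 78.7 CPM in the 3 groups and Vcan at 36.5, 48.9 and 39.5. These 2 thus made up most of the sums. Both rose at 1 day, beside 24.9% of all genes tested. Neutrophil markers (8 genes) summed to 0.353 to 0.477, 0.617 to 0.872 and 0.118 to 0.432 CPM, with Elane at 0 in every group. T and NK cell markers (7 of 8 in the table) summed to 1.88 to 2.73, 0.872 to 2.01 and 1.10 to 1.54 CPM, with Cd3d at 0 in every group. The part of myeloid cells in the Irf8 result was not tested.

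By 7 days fewer of the 9 genes differed from PBS by the test. Against PBS 1 of the 9 genes rose (Stat2), 1 fell (Irf7) and 7 did not pass, where 16.8% of all genes tested rose, 18.9% fell and 35.6% changed in either direction. None rose by at least 2-fold (2.43% of all genes did) and Irf7 fell by that much (1.21% of all genes did). Libraries lay wholly above PBS for 2 of the 9 genes (Stat2 and Irf8) and wholly below for Irf7, against 21.5% and 22.7% of all genes tested, or 44.2% in either direction. Between 7 days and 1 day of LPS, none of the 9 genes rose, 6 fell (Ifngr1, Stat2, Irf1, Irf7, Irf8 and Irf9) and 3 did not pass, beside 27.5% of all genes that rose, 29.1% that fell and 56.6% in either direction. Falls of at least 2-fold were made by Irf7 and Irf9, and by 4.51% of all genes tested, while 3.17% of all genes and none of the 9 rose that far. The same 6 genes that fell had no overlap between the groups, none lay wholly higher and 3 overlapped, beside 31.1% lower, 29.5% higher and 60.6% in either direction over all genes tested. The median log2 change of the 9 genes was -0.00 at 7 days against PBS (0.00 over all genes tested) and -0.67 from 1 to 7 days (-0.00 over all genes tested). The comparisons share libraries, so they are not independent of each other.

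**Figure D2:**
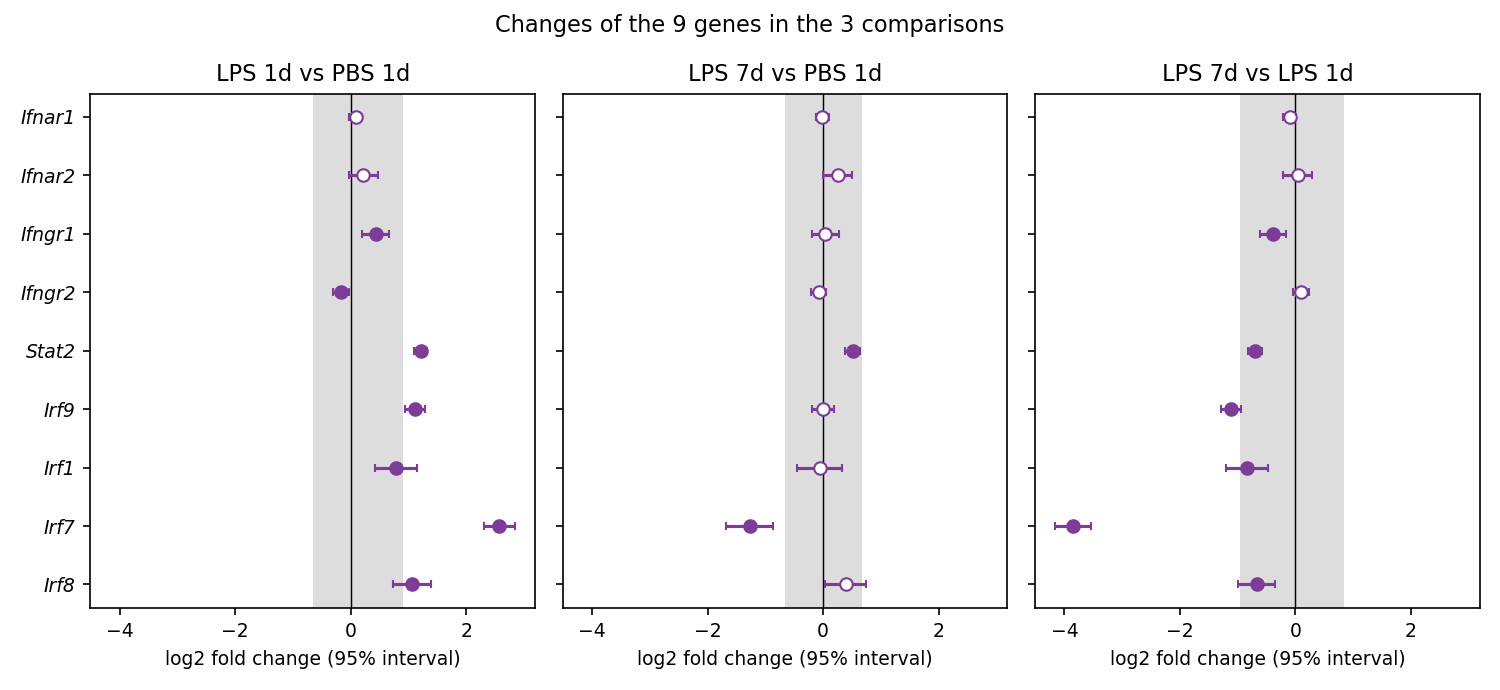
Log2 fold change of the 9 genes in the 3 comparisons with 95% intervals; filled points have an edgeR adjusted p under 0.05 and the grey band spans the 5th to 95th percentile of all genes tested. Irf7 (2.58), Stat2 (1.21), Irf9 (1.11) and Irf8 (1.06) lie beyond the band at 1 day, and of the 9 genes Irf7 alone (-1.27) lies beyond it at 7 days against PBS.

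Levels can be set between genes only per length, as the deposited FPKM, which divide fragments by gene length and library total. In PBS the receptor chains Ifngr2 (11.8 ± 0.186 FPKM, SD, n = 3) and Ifnar1 (10.6 ± 0.0317) came first. Stat2 followed at 6.86 FPKM, Ifngr1 at 4.96, Irf9 at 3.10, Ifnar2 at 2.72, Irf7 at 1.14, Irf1 at 0.908 and Irf8 at 0.524. Each neighbour in that order was apart from the next in every library except Irf9 and Ifnar2, whose ranges overlapped.

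One day after LPS the FPKM order was led by Stat2 (15.7 ± 0.558, SD, n = 3), ahead of Ifnar1 at 11.2 and Ifngr2 at 10.4. Irf7 (6.71 FPKM), Irf9 (6.64) and Ifngr1 (6.56) came next with overlapping ranges, followed by Ifnar2 (3.12), Irf1 (1.56) and Irf8 (1.08). At 7 days Ifngr2 (11.5 FPKM), Ifnar1 (10.8) and Stat2 (10.1) overlapped as neighbours at the top. Ifngr1 (5.21) followed, then Ifnar2 (3.34) and Irf9 (3.19) with overlapping ranges, then Irf1 (0.900), and Irf8 (0.707) and Irf7 (0.483), which overlapped at the bottom. Irf7 thus moved from the seventh place to the fourth and then to the last. These places rest on the deposited lengths. For Irf7 that length, 3776 bases, is its whole span from first to last base. That of Stat2, 5926 bases, is only part of its span. A shorter length would raise every Irf7 FPKM alike, and the effect on the places was not tested.

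Partner genes were also compared as ratios of FPKM within each library, with an exact two-sided permutation test over libraries that cannot go below p = 0.1 for 3 against 3 and with adjustment over 9 tests. The ratio of Ifnar1 to Ifnar2 was 3.95 ± 0.483 (SD, n = 3) in PBS, 3.59 ± 0.173 in LPS at 1 day and 3.28 ± 0.552 in LPS at 7 days, with overlap in each comparison. The ratio of Ifngr1 to Ifngr2 was 0.303, 0.479 and 0.478 in PBS, 0.591, 0.616 and 0.690 in LPS at 1 day, and 0.414, 0.525 and 0.423 in LPS at 7 days. The 1-day libraries lay above all others (exact permutation p = 0.1, adjusted 0.225, against either group).

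The ratio of Stat2 to Irf9, the partners in the type I complex, was 2.31, 2.19 and 2.14 in PBS, 2.27, 2.44 and 2.39 in LPS at 1 day, and 2.71, 3.34 and 3.51 in LPS at 7 days. PBS and 1 day overlapped (exact permutation p = 0.2, adjusted 0.3), and the 7-day libraries lay above both (exact permutation p = 0.1, adjusted 0.225, for each). On the log2 scale the 7-day ratio was 0.52 above that of PBS and 0.42 above that of 1 day. No ratio passed an adjusted p of 0.05, which this design could not give.

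**Figure D3:**
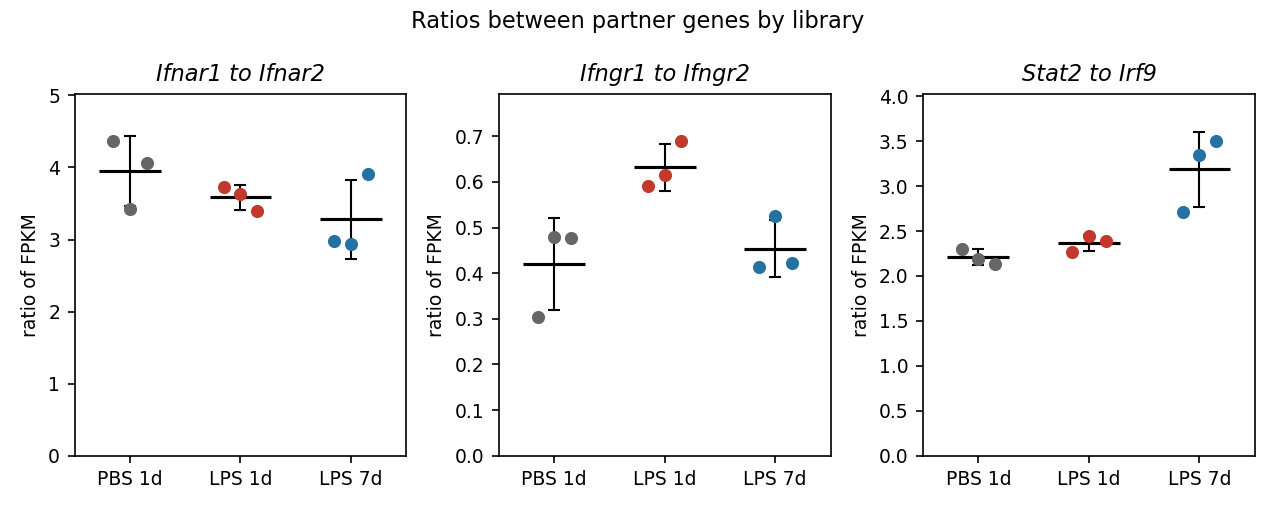
Ratio of deposited FPKM between partner genes in each library, by group, on linear axes from 0; points are libraries, lines means and bars the SD (n = 3). The Stat2 to Irf9 ratio is 2.71 to 3.51 in LPS at 7 days and 2.14 to 2.44 in the other libraries, and the Ifngr1 to Ifngr2 ratio is 0.591 to 0.690 in LPS at 1 day.

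The genes most like each of the 9 were taken as the 3 with the smallest root mean square (RMS) difference in log2 CPM from PBS over the 9 libraries, among tested genes with a mean of at least 5 CPM. For Irf7 they were Ifit3 (RMS 0.226), Ifit1 (0.375) and Plin4 (0.377). Ifit3 and Ifit1, interferon-induced proteins that bind viral RNA, changed by 2.65 and 2.38 on the log2 scale at 1 day and by -1.36 and -1.53 at 7 days against PBS. For Stat2 they were Fam107a (0.119), Timeless (0.121) and Plat (0.130), for Irf9 Abhd18 (0.0853), Tma16 (0.102) and Mafk (0.115), for Irf1 Zfp777 (0.0886), Zscan25 (0.0972) and Oaf (0.101), and for Irf8 Htra1 (0.109), Itih2 (0.116) and Plat (0.119).

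For the receptor chains the nearest genes were Champ1 (0.0362), Sap30bp (0.0383) and Adam9 (0.0389) for Ifnar1, Hmgb1 (0.0482), Clpx (0.0492) and Rpl17 (0.0662) for Ifnar2, Pld1 (0.0968), Wee1 (0.119) and Snx24 (0.127) for Ifngr1, and Rab22a (0.0313), Trim37 (0.0388) and Anapc5 (0.0389) for Ifngr2. These are descriptions over the same 9 libraries that share their groups.

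Transcripts of the interferons themselves were barely detected. None of the 21 interferon genes in the table reached the filter. Their counts summed to 0 in PBS, 7 in LPS at 1 day (Ifna2 with 3 and Ifne with 4) and 4 in LPS at 7 days (Ifna16 with 1 and Ifne with 3). The 0 in PBS allows up to 0.0628 CPM, counting error only. Ifnb1 and Ifng had no count in any library.

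A list of 66 further genes of the pathway, from the interferons and their receptors to kinases, STATs, IRFs, regulators and partners, had 39 tested genes. At 1 day 18 rose, 5 fell and 16 did not pass, with a median log2 change of 0.20 beside -0.01 over all genes tested, of which 49.1% changed in either direction. At 7 days against PBS 2 rose, 6 fell and 31 did not pass (median -0.01, with 35.6% of all genes tested changed), and from 1 to 7 days 7 rose, 19 fell and 13 did not pass (median -0.19, with 56.6% of all genes tested changed). The count at 7 days against PBS was 4 without LPS 7-day replicate 2 and 4 in DESeq2, in place of 8.

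Among the 4 Janus kinases, which phosphorylate the STATs, Jak3 alone passed at 1 day (0.39 ± 0.12, adjusted p = 0.00431, edgeR quasi-likelihood). Jak1, bound to both receptors, alone passed at 7 days against PBS (-0.16 ± 0.04, adjusted p = 0.00199). Raver2, which overlaps Jak1 on the opposite strand, fell in that comparison too (by 0.29 on the log2 scale). Of 4 tested further STATs, 2 rose and 1 fell at 1 day. Over all genes tested 24.9% rose and 24.2% fell at that time, and 35.6% changed at 7 days against PBS. Stat3, the main transducer of interleukin-6, rose by 1.23 ± 0.05 (from a mean of 85.8 to 202 CPM, adjusted p = 1.26e-27, edgeR quasi-likelihood) and was at 84.7 CPM at 7 days. Stat5a rose by 0.61 ± 0.20 and its close paralogue Stat5b fell by 0.43 on the log2 scale. Stat5a lost its call without PBS replicate 3 or LPS 1-day replicate 2, and it overlaps Stat3 on the opposite strand, so reads of the more abundant Stat3 cannot be told apart from its own if counting ignored strand. Stat6 alone of these STATs passed at 7 days against PBS (-0.27 ± 0.10, adjusted p = 0.033, edgeR quasi-likelihood), a call lost in DESeq2, with scaling by library totals, without the filter, and without any of 4 single libraries, PBS replicates 1 and 3 and LPS 7-day replicates 2 and 3. Nab2, which overlaps Stat6 on the opposite strand, fell in the same comparison (by 0.56 on the log2 scale).

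Irf3, which is present before stimulation and starts interferon beta transcription, had its lowest level in the group where Irf7 had its highest. Its means were 13.9, 8.997 and 20.2 CPM in the 3 groups. It fell by 0.63 on the log2 scale at 1 day (SE 0.12, adjusted p = 1.78e-05, edgeR quasi-likelihood) and stood 0.54 ± 0.11 above PBS at 7 days (adjusted p = 4.40e-05). Bcl2l12, which overlaps it on the opposite strand, was at means of 1.06 to 1.53 CPM and passed no test. None of the other 3 tested IRFs changed against PBS at either time, and Irf5 fell from 1 to 7 days (-0.64 ± 0.20, adjusted p = 0.00487, edgeR quasi-likelihood), a call lost without LPS 1-day replicate 2. Tnpo3 overlaps Irf5 on the opposite strand and was more abundant, at means of 88.3, 81.7 and 77.9 CPM in the 3 groups.

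Of 17 negative regulators, all tested, 10 rose, 2 fell and 5 did not pass at 1 day, where 24.9% of all genes tested rose and 24.2% fell. Socs3, an inhibitor of cytokine receptor signalling, rose from 2.92 to 14.0 CPM (log2 change 2.26 ± 0.17, adjusted p = 2.52e-16, edgeR quasi-likelihood). Ptpn11 rose by 0.45 ± 0.04 and Pias1 by 0.37 ± 0.05, while Irf2bpl and Irf2bp1 fell by 0.36 and 0.19 on the log2 scale. From 1 to 7 days 4 rose and 8 fell, beside 27.5% and 29.1% of all genes tested. Among the falls were Socs3 (-2.66 ± 0.17) and Usp18, which acts on the type I receptor at IFNAR2 (-2.71 ± 0.31, from 4.03 to 0.609 CPM). Usp18 was among the 10 that rose at 1 day (1.98 ± 0.29, from 1.02 CPM in PBS). None of the 17 regulators rose at 7 days against PBS, Socs2 and Pias1 fell (by 0.32 and 0.14 on the log2 scale) and 15 did not pass. Over all genes tested 35.6% changed in either direction there. The Pias1 call was lost in DESeq2, with scaling by library totals, with the 2 groups alone, and without PBS replicate 1 or LPS 7-day replicates 1 or 2.

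Of the 9 tested partners of IRFs and STATs, 5 rose, 1 fell and 3 did not pass at 1 day. Over all genes tested 24.9% rose and 24.2% fell in that comparison. Nlrc5, the transactivator of MHC class I genes, rose from 1.53 to 9.28 CPM (2.62 ± 0.23, adjusted p = 7.89e-14, edgeR quasi-likelihood). The coactivators Crebbp (0.54 ± 0.05) and Ep300 (0.31 ± 0.05) and the IRF8 partner Spi1 (0.90 ± 0.20, from 2.94 to 5.54 CPM) rose too. Ciita, the transactivator of MHC class II genes, fell by 0.82 on the log2 scale (SE 0.29, adjusted p = 0.0152), a call lost without PBS replicates 1 or 3 or LPS 1-day replicates 2 or 3. Dexi overlaps Ciita on the opposite strand at means of 34.6, 37.2 and 46.5 CPM in the 3 groups. Reads of this more abundant gene cannot be told apart from those of Ciita if counting ignored strand. None of the 9 partners rose at 7 days against PBS, 2 fell (Kpna1, by 0.16, and Ep300, by 0.14 on the log2 scale) and 7 did not pass. Over all genes tested 35.6% changed in either direction there. The Ep300 call was lost in DESeq2, with scaling by library totals, with the 2 groups alone, and without PBS replicates 1 or 3 or LPS 7-day replicates 1 or 2 (adjusted p 0.0584 to 0.294 over these fits).

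Listed targets of the pathway had larger median changes at 1 day than the 9 genes. Of 26 tested targets of type I interferon, 25 rose and 1 (Ifi27, -0.10 ± 0.11) did not pass at 1 day, with a median log2 change of 1.62. Over all genes tested 24.9% rose in that comparison. Ifit3 rose from 9.02 to 56.7 CPM (2.65 ± 0.09, adjusted p = 3.51e-30, edgeR quasi-likelihood), Ifitm3 by 2.47 ± 0.10, Oasl2 by 2.29 ± 0.10 and Rsad2 by 3.61 ± 0.18. From 1 to 7 days all 26 fell (median -2.16), beside 29.1% of all genes tested. At 7 days against PBS 14 fell, none rose and 12 did not pass (median -0.46), beside 18.9% of all genes that fell and 16.8% that rose. The falls included Ifit3 (-1.36 ± 0.13), Ifit1 (-1.53 ± 0.20), Xaf1 (-1.10 ± 0.13) and Ifit3b (-1.04 ± 0.18), and Irf7 was the gene among the 9 that fell with them. Ifit3 and Ifit3b are close copies whose reads the counting could have split. Mx1 and Mx2 were not analysed here.

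Of 25 tested genes listed as targets of interferon gamma, 23 rose and 2 did not pass at 1 day (median 1.90). The share of all genes tested that rose was 24.9%. The name of a target list does not show which interferon or other signal acted, and this was not tested. Irgm1, a GTPase of antimicrobial defence, rose by 2.55 ± 0.10, Tap1, a peptide transporter for MHC class I, by 2.43 ± 0.13 and Gbp2 by 2.41 ± 0.13. Cxcl10, a chemokine, rose by 5.21 ± 0.26, from 0.369 to 13.6 CPM (adjusted p = 4.06e-23, edgeR quasi-likelihood). From 1 to 7 days 21 fell, none rose and 4 did not pass (median -2.06), beside 29.1% of all genes that fell and 27.5% that rose.

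At 7 days against PBS 4 of the gamma targets were higher, 5 were lower and 16 did not pass (median -0.06). Over all genes tested 16.8% rose and 18.9% fell in that comparison, so these counts were near the share of all genes. The 4 that rose were the MHC class II genes H2-Ab1 (2.26 ± 0.46, from 0.311 to 1.54 CPM) and H2-Aa (1.59 ± 0.50, from 0.351 to 1.09 CPM), Cd74, the invariant chain (0.80 ± 0.22), and Serping1, an inhibitor of complement C1 (0.72 ± 0.14). H2-Aa lost its call without PBS replicate 3 or LPS 7-day replicate 2. Gbp2 was among the 5 that fell (-0.65 ± 0.18, adjusted p = 0.00241, edgeR quasi-likelihood). Ciita stood at means of 2.62, 1.49 and 2.66 CPM in the 3 groups. Its part in the class II values was not tested.

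**Figure D4:**
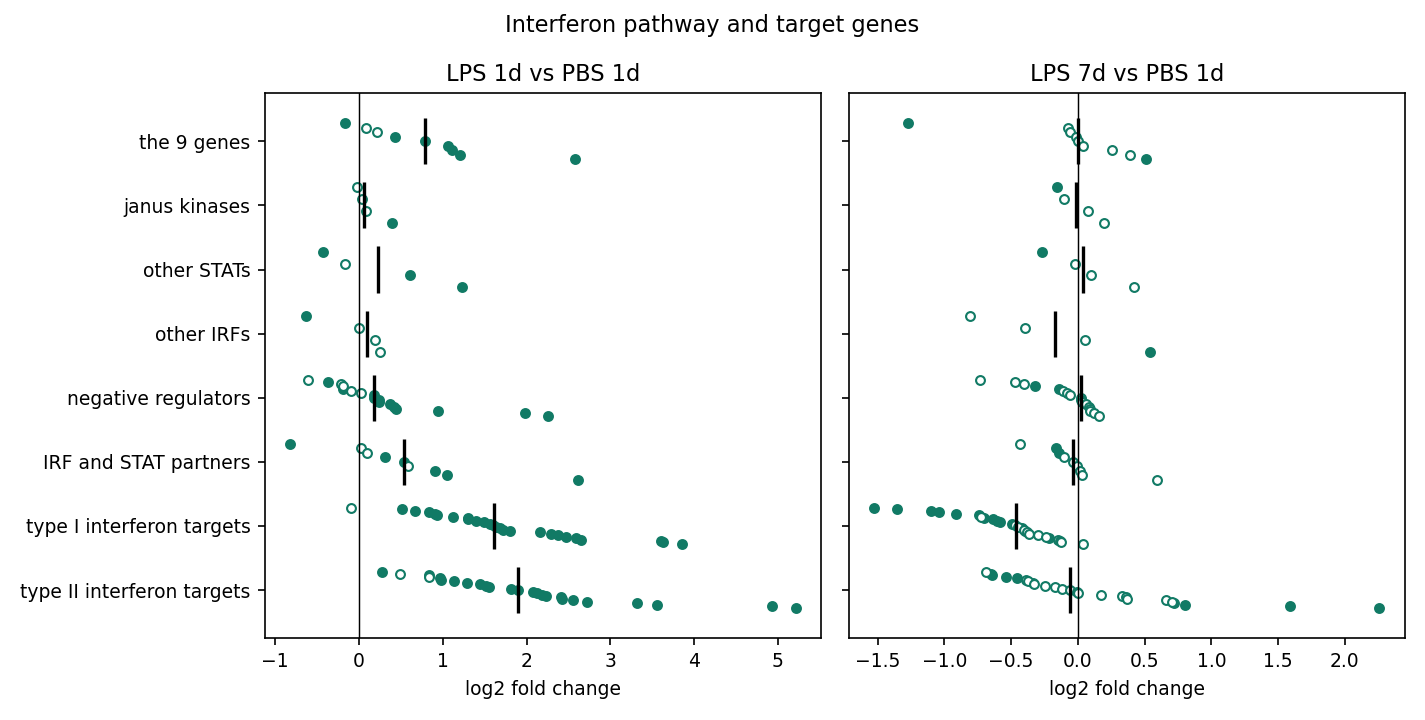
Log2 fold change of each tested gene of the pathway and target lists, in LPS at 1 day and LPS at 7 days against PBS; filled points have an edgeR adjusted p under 0.05 and black bars are list medians. The medians of type I and type II targets are 1.62 and 1.90 at 1 day and -0.46 and -0.06 at 7 days.

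Markers of other tissue compartments also differed at 7 days, when Stat2 was above and Irf7 below PBS. Calls below are for 7 days against PBS, where 16.8% of all genes tested rose and 18.9% fell. All 6 oligodendrocyte markers rose, with sums of 6933 to 7295 CPM in PBS, 6924 to 6954 at 1 day and 9292 to 9919 at 7 days. Of 6 choroid plexus markers 5 fell, with sums of 448 to 510, 473 to 489 and 347 to 361 CPM. Astrocyte markers (7 genes, 4 higher and 1 lower at 7 days) summed to 3644 to 3733, 3988 to 4024 and 4034 to 4099 CPM, endothelial markers (7 genes, 5 higher) to 246 to 261, 273 to 283 and 301 to 312, pericyte markers (5 genes, 3 higher) to 207 to 213, 214 to 226 and 298 to 314, and general neuronal markers (6 genes, 4 higher and 1 lower) to 4199 to 4323, 4433 to 4507 and 4289 to 4430. All 8 cerebellar markers rose at 7 days against PBS, with a median log2 change of 2.77. The part of tissue composition in the 7-day values of Stat2, Irf7 and the lists was not tested.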

How the data were processed

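The authors deposited counts per gene for 9 libraries, together with FPKM, and recomputing FPKM from counts and lengths differed by at most 1.6e-07 in relative terms. The other columns, gene name, position, strand and length, were used as the authors deposited them. TopHat2, HISAT2, HTSeq and GRCm39 are named in the submitters' processing notes. Their versions, and whether counting used strand, are not given in these sources. Of 21899 genes, 3516 had no count and 14837 passed filterByExpr.

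Counts were fitted with edgeR 4.0.16 (R 4.3.3) (quasi-likelihood, 1 mean for each group, all 9 libraries together), with TMM factors of 0.983 to 1.03 and Benjamini-Hochberg adjustment over all genes tested, and the method was tested on simulated data. The biological coefficient of variation was 4.15%, with 6 residual and 43.4 prior degrees of freedom. SEs were derived from the fold change and its F statistic. The precision of low genes is set by the totals of 13211422 to 17210526 counts per library. Alternatives were RLE factors, library totals alone, no filter, DESeq2 1.42.0, the 2 groups alone, a replicate block and leaving out each library.

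Groups were taken from the treatment labels. The 9 genes and all lists were chosen with earlier results of these data known, so list counts are descriptions. Named list genes are up to 4 per list and comparison by p-value, plus those against the majority of their list. Ifi27 and the genes named for lacking counts were named after their values were seen. Some pathway genes are not reported here. Promoter letters come from RefSeq on GRCm38.p6 and gene positions from the deposited GRCm39 table, and coordinates were not converted.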

Additional observations from a re-analysis of the deposited data

How the results depend on the processing

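The number of the 9 genes that changed was 7 at 1 day, 2 at 7 days against PBS and 6 from 1 to 7 days, and leaving out single libraries gave 5 to 7, 2 to 3 and 6 to 7. The pathway list at 7 days against PBS had 8 calls, 4 in DESeq2 and 4 to 8 without single libraries. Fits with the replicate number as a block gave 7, 2 and 6 of the 9 genes and 24, 8 and 26 list genes, and changed no call of the 9 genes. Deviations of same-numbered libraries were hardly correlated (-0.023 to 0.027, others -0.04 to 0.057). Such values cannot show whether the numbers pair the libraries.

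Signs turned in the following values, none of which passed the test. Ifnar1 at 7 days against PBS was 0.025 with scaling by library totals. Irf9 in that comparison was 0.0042 with RLE factors, 0.039 with library totals, 0.0085 without the filter, 0.0055 in DESeq2 and 0.0062 with the 2 groups alone. Without single libraries the ranges at 7 days against PBS were -0.070 to 0.021 for Ifnar1, -0.15 to 0.17 for Ifngr1, -0.095 to 0.076 for Irf9, -0.14 to 0.0074 for Irf1 and, for the log2 ratio of Ifngr1 to Ifngr2, -0.084 to 0.25. For Ifnar2 from 1 to 7 days the range was -0.0040 to 0.12. Ifnar1 in that comparison passed without LPS 7-day replicate 3 (-0.16, adjusted p = 0.0317, edgeR), and Ifngr2 with library totals (0.15, adjusted p = 0.0467, edgeR). Under library totals the share of rises among genes changed at 7 days against PBS went from 47.1% to 57.8%. The cause of these changes was not tested.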
